A study of Mus musculus with 288 samples.

Results

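Hearts of mice that had lived through intermittent hypoxia (IH) were compared with hearts of mice kept in normoxia. All 24 normoxia libraries were taken, and all IH libraries but replicate 2 at 10:30, which holds transcripts of the cerebellum, leaving 23. These 47 libraries are part of 48 heart libraries and of 288 in the whole series. Of 35904 genes in the deposited table, the 8127 with an average of 5 TPM (the deposited unit, relative transcript abundance) or more over the 47 libraries were tested.

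The mice were wild type C57BL/6J males, 8 weeks old. For 7 days they breathed air that cycled between 21% and 8% oxygen during the light phase, or stayed in normoxia, and both groups were then held in constant darkness in normoxia for 2 days. On the second of these days the heart was taken every 3 hours over 24 hours, which gives 8 time points with 3 replicates per treatment at each. Poly(A) RNA was enriched from total RNA for directional libraries, and the deposited values are TPM per gene, so the number of reads behind each value is not in the table.

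The tissue label was checked against marker genes. All 17 markers of ventricular cardiomyocytes were in the table and 16 reached the mean of 5 TPM. Their summed level was 19815 TPM at the lowest, 36880 at the median and 49104 at the highest in normoxia, and 28592, 35980 and 47311 after IH. Myl2, the ventricular regulatory light chain of myosin, was the most abundant of them and made up 28.9% of the sum.

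The heart works almost wholly on oxidative metabolism, and its cardiomyocytes share the wall with fibroblasts, endothelial cells, pericytes and resident macrophages. Oxygen is sensed by prolyl hydroxylases, which mark the alpha subunits of hypoxia-inducible factors (HIFs) for destruction while oxygen is present. When oxygen falls, stabilised HIFs switch on genes of glycolysis, blood vessel growth and red cell formation, and cycles of low and normal oxygen are used as a model of sleep apnoea.

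Some libraries stand apart and were described before the comparison. Markers of thymocytes, immature T cells of the thymus, summed to 20 TPM or more in 5 libraries: normoxia replicate 3 at 7:30 (1700 TPM) and at 19:30 (1170), and IH replicate 2 at 16:30 (563), replicate 3 at 10:30 (189) and replicate 1 at 10:30 (176). In the other libraries compared, the sum was at most 3.16. All 8 thymocyte markers were in the table, 4 were tested, and the T cell factor Tcf7 was the most abundant at 34.8% of the sum. Markers of lung epithelium reached 20 TPM in 7 libraries: normoxia replicate 2 at 19:30 (2920), replicate 3 at 7:30 (2114), at 13:30 (1058) and at 19:30 (502), and IH replicate 3 at 7:30 (831), replicate 1 at 19:30 (372) and replicate 1 at 1:30 (48.01). Of these 12 markers, 3 were tested, Scgb1a1, a secreted protein of club cells, made up 68.5% of the sum, and Cldn18, a claudin of alveolar cells, was at 0 in the median library. Leaving out the 10 libraries with either kind of marker keeps 20 in normoxia and 17 after IH, and several results are also given without them.

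Other marker lists also varied between libraries. The 12 cerebellum markers summed to between 11.2 and 26.3 TPM in the libraries compared and to 210 in the library left out, with Car8, a carbonic anhydrase-related protein of Purkinje cells, the most abundant (65.5%) and the granule cell genes Gabra6 and Neurod1 at 0 in the median library. The atrial markers summed to 391 TPM in normoxia replicate 2 at 7:30 and 387 in IH replicate 2 at 7:30, against medians of 3792 and 4855, and to 11235 in normoxia replicate 2 at 22:30. Neutrophil markers summed to 229 TPM in normoxia replicate 2 at 10:30, against a normoxia median of 15.1. The library left out also held 304 TPM of skeletal muscle fibre markers, against at most 181 in the libraries compared. Its sums were 99.7 for Schwann cells and autonomic neurons (at most 32.8 in those compared), 217 for hepatocytes (at most 196) and 53.6 for thymocytes.

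**Figure D1:**
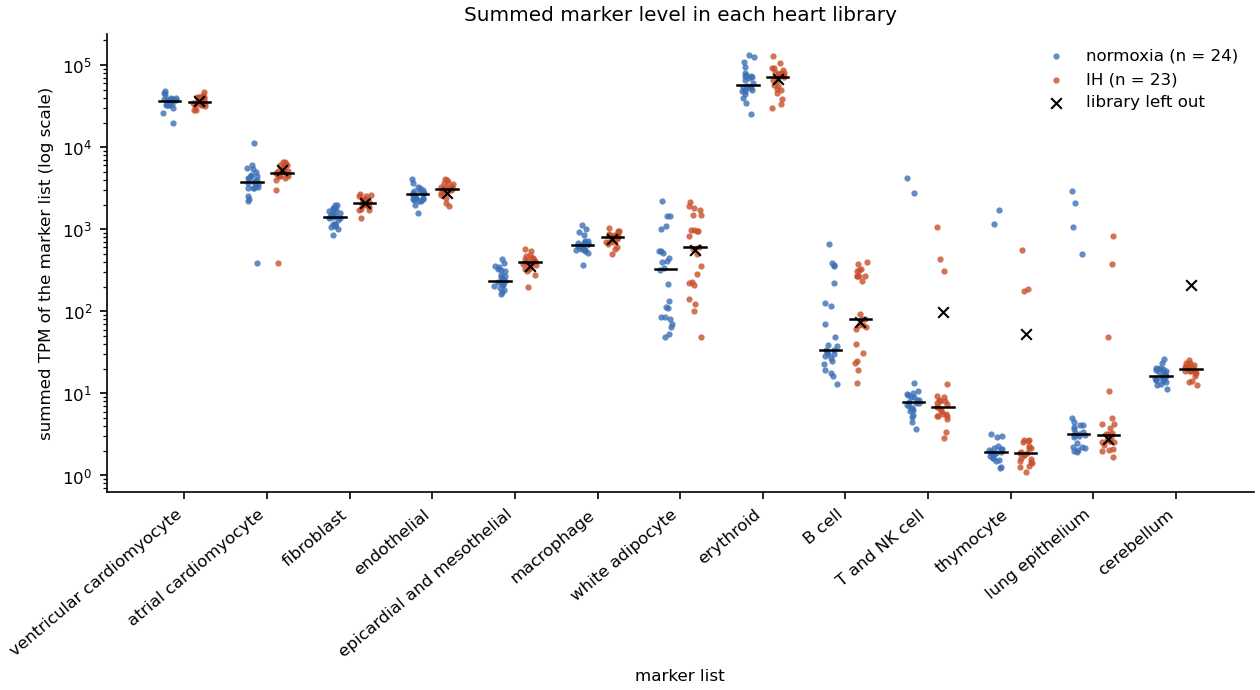
Summed TPM of 13 marker lists (log scale) in each of the 24 normoxia and 23 IH heart libraries, with black bars at the medians and a cross for the library left out. Thymocyte and lung epithelium markers lie near 2 to 3 TPM in most libraries and far higher in a few of both treatments, while the left-out library stands apart for cerebellum markers.

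After IH, 3833 of 8127 genes (47.2%) differed from normoxia at an adjusted p of 0.05 or less (limma, Benjamini-Hochberg): 2442 were higher (30.0%) and 1391 lower (17.1%). Most differences were small, and 170 genes (2.09%) also passed 1.5-fold, 89 higher (1.10%) and 81 lower (0.997%). In 6 genes (0.0738%) the levels of the groups did not overlap: Lars2, Tmem38b and the pseudogene Ubb-ps were higher after IH, and the predicted genes Gm17420, Gm38356 and Gm48216 were lower. Below, a gene "rose" or "fell" if it passed the adjusted p, whatever its fold. The near-even split at 1.5-fold depends on the setting, with 81.2% higher in TPM as deposited, 42.9% with upper quartile scaling and 41.0% without replicate 1, where 1958 genes were called in all. Without the libraries that hold thymocyte or lung markers, 3756 genes were called, 3336 of them among the 3833 (87.0%), and 143 passed 1.5-fold, 131 of them among the 170 (77.1%).

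Scaling matters for the direction of small changes. Libraries were scaled by the median of ratios, which puts the median log2 change of all genes tested at 0.04 (5th to 95th percentile -0.35 to 0.41), against 0.16 in TPM as deposited. Log2 changes and levels below are given after scaling unless they are said to be as deposited, and changes are read against 0.04; the marker sums above are TPM as deposited. Of the genes called, 63.7% were higher after IH with this scaling, 87.4% in TPM as deposited and 53.2% with upper quartile scaling. The filter matters too: without one on mean TPM, 12949 genes were called and 31.0% of them were higher.

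A property of the libraries moved with treatment. The number of genes with any TPM was 22988 at the lowest, 24768.5 at the median and 28331 at the highest in normoxia, and 20316, 21527 and 22793 after IH. All 23 IH libraries were below every normoxia library (mean difference -3661, permutation p = 1e-05, the smallest these permutations can give). The number of genes with at least 1 TPM did not move in this way (difference 72, permutation p = 0.662). Because the groups do not overlap, treatment and the number of genes detected cannot be told apart: with the latter as a further term 111 genes were called, 82 of them among the 3833 (2.14%), and 59 passed 1.5-fold, 32 of them among the 170 (18.8%). Many list medians given below change sign with that term, for ribosomal proteins from -0.39 to 0.09 and for collagens from 0.36 to -0.26.

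Long and short transcripts also differed, a split chosen after the values were seen. Of the genes tested, 8044 (99.0%) had a transcript length, and they were put in order of it in 5 groups of about equal size. The median log2 change was -0.08 in the shortest group (45.5 to 877 bases), then -0.03, 0.04 and 0.11, and 0.16 in the longest (3296 to 16716 bases). In the shortest group 16.2% of genes rose and 32.5% fell, and in the longest 50.5% rose and 8.45% fell. Replicate 1 spanned the widest range, from -0.18 to 0.25, and skeletal muscle of the same series gave -0.03 in the shortest and -0.01 in the longest. With detected genes added to the model, the medians from shortest to longest were 0.03, 0.04, 0.03, 0.00 and -0.04. Several lists below are made of long transcripts, with medians of 4759 bases for collagens, 3615 for matrix proteins and 3747 for angiogenic genes, or of short ones, and the part of length in their results was not tested.

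**Figure D2:**
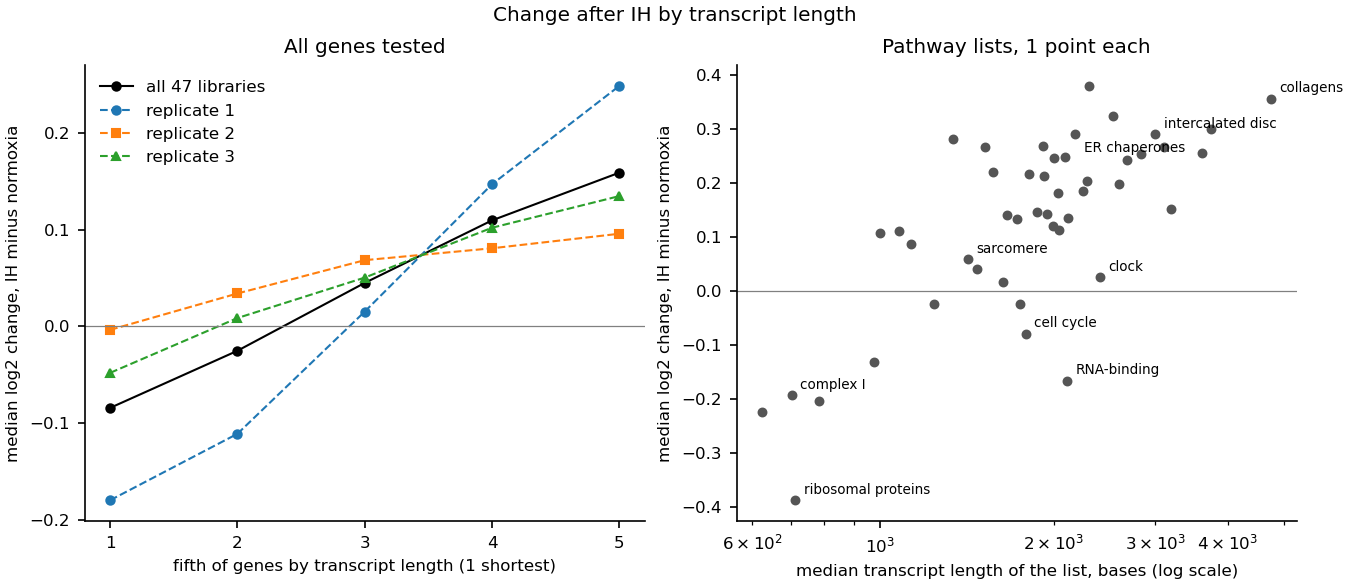
Median log2 change after IH (y axis) in 5 groups of genes ordered by transcript length, over all libraries and in each replicate (left), and for each pathway list against the median transcript length of its members in bases, log scale (right). The median climbs from -0.08 in the shortest group to 0.16 in the longest, and ribosomal proteins lie lowest among the lists.

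Several genes with large rises were highest in the same libraries. Lars2, the mitochondrial leucyl-tRNA synthetase, was at 65.4, 108 and 223 scaled TPM (lowest, median, highest) in normoxia and at 278, 1164 and 8902 after IH. The groups do not overlap, and the log2 change was 3.69 (SE 0.29, adjusted p = 6.83e-14 by limma, higher at 8 of 8 time points). Tmem38b, a potassium channel of the endoplasmic and sarcoplasmic reticulum that balances calcium release, went from 5.63, 11.0 and 16.0 to 16.7, 51.9 and 356, again without overlap (log2 change 2.55, SE 0.25). Creb5, a transcription factor that binds cAMP response elements, rose by 3.00 (SE 0.29), and Ccnb1ip1, a ubiquitin ligase acting on cyclin B, by 3.76 (SE 0.34). Ccdc107, a coiled-coil membrane protein, rose by 0.96 (SE 0.15). The same 5 libraries were the highest for all 5 of these genes: IH replicate 1 at 1:30, 4:30, 7:30 and 16:30 and IH replicate 2 at 4:30. The rise was there in each replicate, for Lars2 with 5.07, 2.90 and 3.02 in replicates 1, 2 and 3. Whether reads of another origin add to the values of these 5 genes was not tested, so their rises may not be those of the genes' own transcripts.

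C3, the central component of complement, was at 32.0, 50.3 and 101.5 in normoxia and at 67.8, 98.0 and 227 after IH. All 23 IH libraries were above the normoxia median although the groups overlap, and the log2 change was 0.90 (SE 0.13). Slpi, an inhibitor of leukocyte proteases, rose by 0.91 (SE 0.24), with replicates at 1.81, 0.54 and 0.34, and averaged 5.66 TPM, so that without the thymocyte and lung marker libraries it was below the limit for testing. Cyp2e1, a cytochrome P450 that oxidises ethanol and fatty acids, rose by 1.02 (SE 0.33), with replicates at 1.62, 1.16 and 0.28. Scd1, the desaturase that makes oleate, rose by 1.21 (SE 0.50), and Acaca, the carboxylase that makes malonyl-CoA, by 0.83 (SE 0.29). Both calls rest on single time points: without 10:30 or without 13:30 neither gene was called, with Scd1 at 0.97 both times and Acaca at 0.65 and 0.74. Scd1 was also not called without 16:30 (1.25) or 22:30 (1.12), or without the libraries holding thymocyte and lung markers (1.12). Without replicate 1, Slpi (0.46), Cyp2e1 (0.73), Scd1 (0.88) and Acaca (0.53) were not called. White adipocyte markers, read below, had a median of 0.89, with 1.58, 0.99 and 0.03 in replicates 1, 2 and 3.

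Among the largest falls, Lgals4, a galectin of epithelia, went from 9.89, 25.4 and 42.2 to 4.92, 6.65 and 22.2. All 23 IH libraries were below the normoxia median, and the log2 change was -1.48 (SE 0.16, adjusted p = 4.65e-10 by limma). Focad, a protein of focal adhesions, went from 4.45, 8.99 and 23.9 to 2.68, 3.69 and 4.91, a change of -1.15 (SE 0.11) at 8 of 8 time points. Myh7b, a slow myosin heavy chain whose gene hosts a microRNA, fell by 0.94 (SE 0.15). Zrsr1, an imprinted splicing factor, fell by 1.23 (SE 0.23), with replicates at -1.99, -0.45 and -1.21. Pnisr, a serine- and arginine-rich nuclear protein, fell by 0.91 (SE 0.11), and Clk1, a kinase that acts on splicing factors, by 0.82 (SE 0.12). Scgb1c1, a secretoglobin, fell by 0.86 (SE 0.13), and Pagr1a, part of a histone methyltransferase complex, by 0.85 (SE 0.21), which was not called without replicate 3 (-0.63).

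Several members of this group have near-identical copies in the genome, so that reads may be shared out among them. Ccl21b and Ccl21c, chemokines of lymphatic vessels, rose by 2.37 and 2.41, and Ccl21d fell by 1.87. The sum of Ccl21a to Ccl21d moved far less, from 36.6, 70.5 and 124 in normoxia to 62.9, 83.5 and 121 after IH. Changes of single copies are therefore uncertain, as are those of the histone H2ac18 (-1.03), the clustered protocadherin Pcdhgc4 (-1.06) and the ribosomal protein Rpl5 (-0.87), which has many pseudogenes. Pcdhgc4 was not called without 13:30 (-0.98), without the lung marker libraries (-0.81) or without both kinds of marker library (-0.88), and without replicate 1 neither Pcdhgc4 (-0.50) nor Ccl21d (-1.39) was called. Of 167 genes that passed 1.5-fold with the same direction at 7 or more time points, 55 were predicted genes or pseudogenes, 25 higher and 30 lower, and 112 were other genes, 61 higher and 51 lower. By abundance, the largest called genes were mt-Co2 (-0.31) and mt-Nd3 (-0.35), described with the respiratory chain, and the predicted gene Gm19220 (-1.25), with 10530, 23880 and 86520 in normoxia and 5187, 10080 and 87630 after IH.

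**Figure D3:**
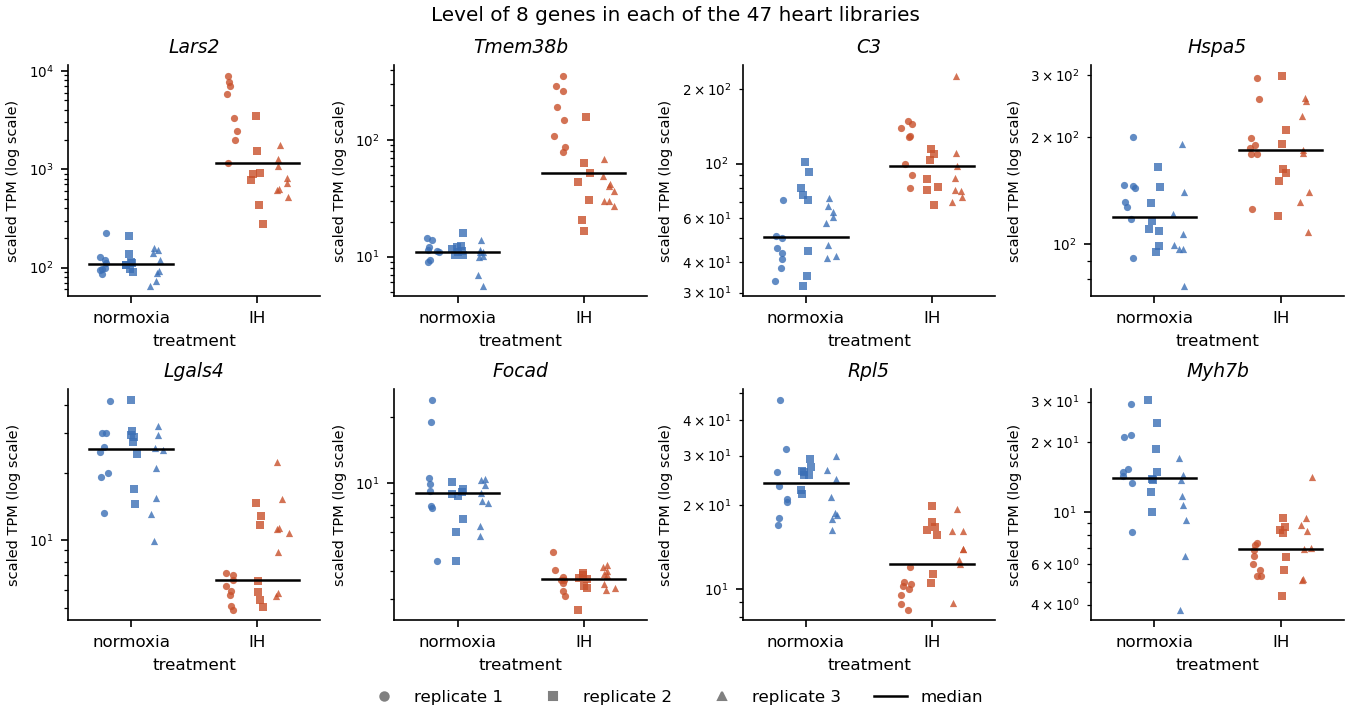
Scaled TPM (log scale) of 8 genes in each of the 24 normoxia and 23 IH heart libraries, with symbols for the replicate and bars at the medians. Lars2 and Tmem38b do not overlap between treatments, and the others shift with overlap.

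Genes were then read as lists of pathways and cell type markers, each by the number of tested members that rose and fell and by the median log2 change, beside 30.0%, 17.1% and 0.04 over all genes. The lists and their members were chosen with earlier results of these data known, so the counts describe them and test nothing. A list whose shares lie near those of all genes is not set apart by its counts. In bulk tissue, fewer cells of a type and less RNA of that type per cell cannot be told apart. Without replicate 1, 53 of the 239 genes named in the text fell below the threshold. They include list members, and these losses are not marked gene by gene below.

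**Figure D4:**
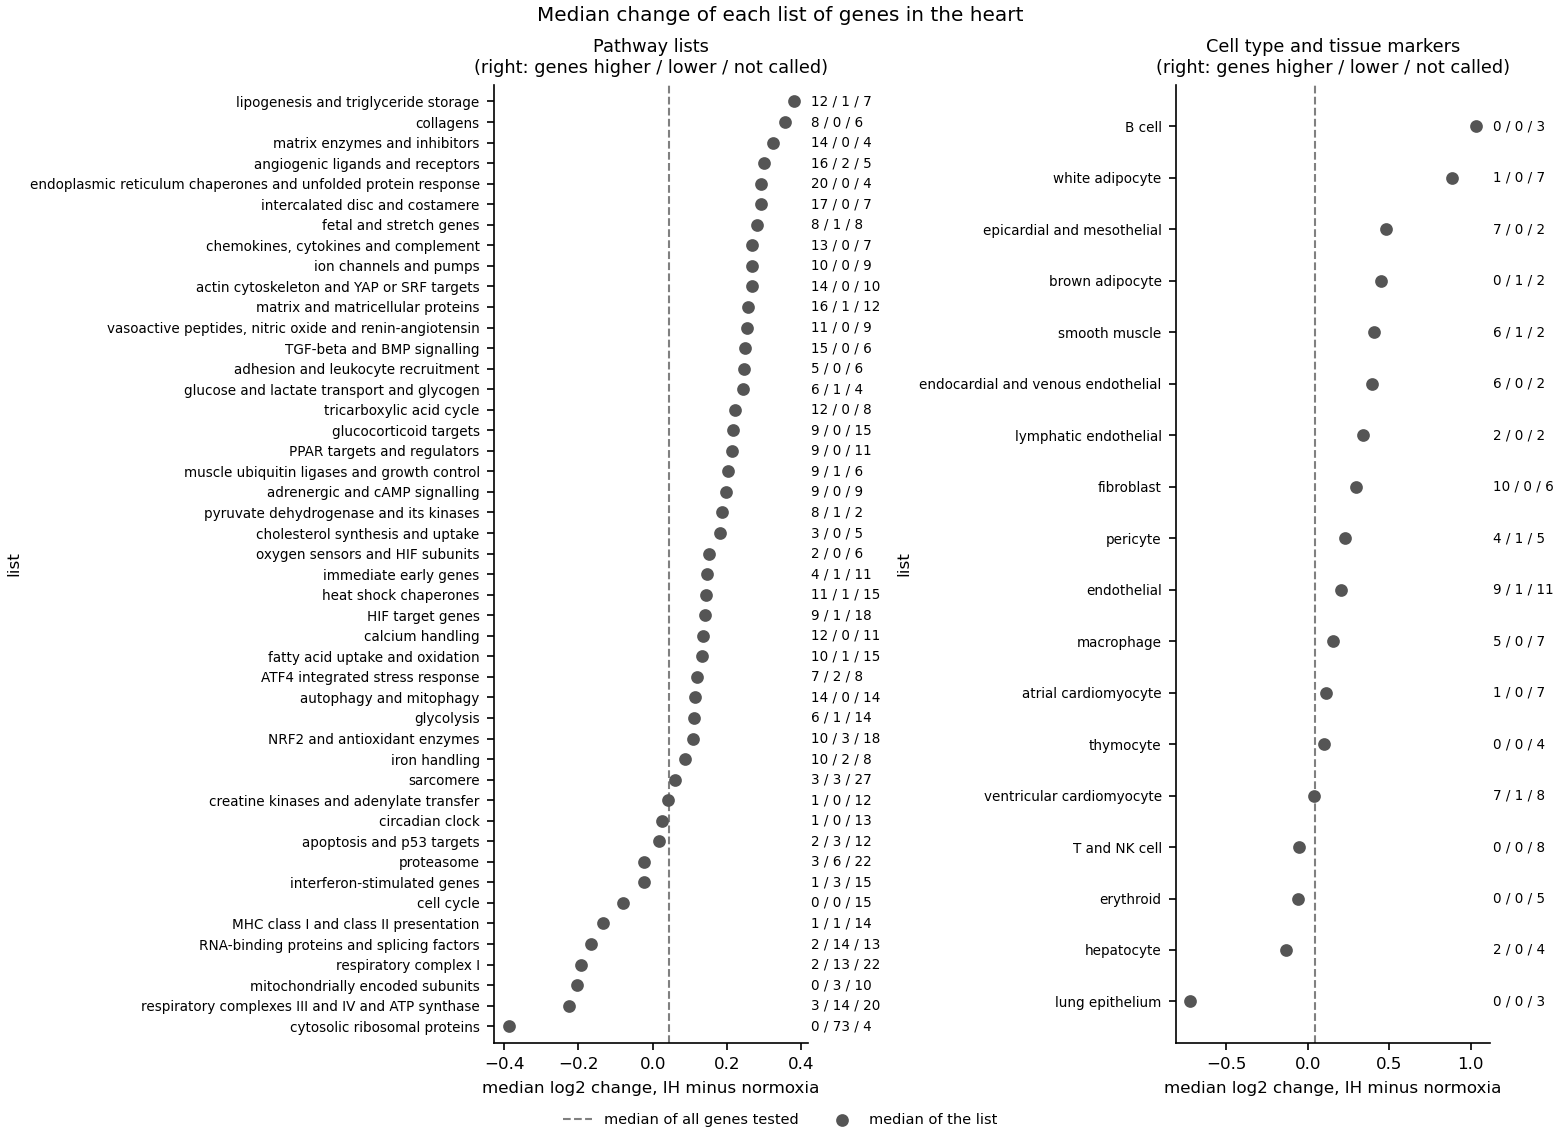
Median log2 change of each list with at least 3 tested members, IH minus normoxia (x axis), for pathways (left) and for cell type and tissue markers (right). The dashed line marks the median of all genes (0.04), numbers give members higher, lower and not called, and the ribosomal proteins lie lowest of the pathway lists at -0.39.

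Of 77 cytosolic ribosomal proteins, the parts of the ribosome, 73 fell and 0 rose, with a median of -0.39, -0.27 in TPM as deposited and -0.42 with upper quartile scaling. Rpl13a, the most abundant, was at 1716, 2778 and 4496 in normoxia and at 1351, 1913 and 2852 after IH (log2 change -0.54, SE 0.10). The groups overlap, with 20 of 23 IH libraries below the normoxia median. Rps12 fell by 0.63, Rpl32 by 0.60 and Rpl34 by 0.57. The list's median was -0.60, -0.17 and -0.30 in replicates 1, 2 and 3, and 65 members fell without the thymocyte and lung marker libraries. Their transcripts are short (median 714 bases), and of all genes in the shortest length group 32.5% fell.

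Of 29 RNA-binding proteins and splicing factors, 14 fell, 2 rose and 13 were not called, with a median of -0.17. Clk1, given above, went from 24.4, 50.7 and 74.0 to 18.1, 25.3 and 59.7. Its relative Clk4 fell by 0.75 (SE 0.09), in the replicates by 0.94, 0.82 and 0.50. Srsf11 (-0.61) and Srsf5 (-0.58) are serine- and arginine-rich splicing factors, and Rbm3 (-0.56) and Cirbp (-0.42) are proteins that cold induces. The members that rose were Rbfox2 (0.30) and Qk (0.28), regulators of muscle splicing, and 4 rose without the thymocyte and lung marker libraries. Rbfox2 was not called without the lung marker libraries alone (0.18).

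Energy metabolism was read by its parts. Of 20 genes of the tricarboxylic acid cycle, 12 rose and 0 fell (median 0.22, and 0.14 without the lung marker libraries). Ogdh, the catalytic subunit of the 2-oxoglutarate dehydrogenase complex, was at 108, 214 and 324 in normoxia and at 180, 321 and 444 after IH, with 21 of 23 IH libraries above the normoxia median (log2 change 0.54, SE 0.10). Sdha, the flavoprotein of succinate dehydrogenase, rose by 0.35. Of 11 genes of pyruvate dehydrogenase and its regulators, 8 rose and 1 fell (median 0.19). Dlat, the acetyltransferase of the complex, rose by 0.36, and Mpc2, a subunit of the mitochondrial pyruvate carrier, fell by 0.36. Without 7:30, 19:30 or 22:30 the count of rises was 5, and without the lung marker libraries 4 (median 0.12).

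Of 37 subunits of complex I, 13 fell and 2 rose, with a median of -0.19. Ndufs6, an accessory subunit, was at 360, 843 and 1431 in normoxia and at 522, 627 and 1013 after IH, a change of -0.34 (SE 0.11) with wide overlap. Ndufs1, the large subunit that carries iron-sulfur clusters, rose instead by 0.37 (SE 0.09). In complexes III and IV and ATP synthase, 14 of 37 fell and 3 rose (median -0.22), led by Cox7c (-0.52) and Cox6c (-0.38), small subunits of cytochrome c oxidase, while Uqcrc2 (0.25), a core subunit of complex III, rose. Of the complexes III and IV and ATP synthase, 1 rose without 7:30, 19:30 or 22:30. Of 13 subunits encoded in mitochondrial DNA, 3 fell and 0 rose (median -0.20). Transcripts of complex I (median 704 bases) and of complexes III and IV and ATP synthase (625) are shorter than those of the tricarboxylic acid cycle (1567), and of all genes in the shortest length group 32.5% fell.

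These counts of falls move with single time points. For complex I, 3 fell without 10:30, 3 without 13:30, 5 without 16:30 and 7 without 4:30, but 26 without 7:30. For complexes III and IV and ATP synthase the counts were 7 without 10:30, 6 without 13:30, 8 without 16:30, 9 without 4:30 and 24 without 7:30. Without the lung marker libraries or without the thymocyte marker libraries, 26 subunits of complex I and 25 of complexes III and IV and ATP synthase fell. Without both kinds, 19 subunits of complex I, 22 of complexes III and IV and ATP synthase and 7 of the mitochondrially encoded subunits fell. Complex I had medians of -0.47, -0.08 and 0.01 in replicates 1, 2 and 3, and complexes III and IV and ATP synthase had -0.485, -0.10 and -0.01. The mitochondrial calls are the least firm. Without 10:30, 13:30, 16:30 or 1:30, 0 of the 13 were called lower, with mt-Co2, cytochrome c oxidase subunit 2, at -0.28, -0.25, -0.28 and -0.28 and mt-Nd3, of complex I, at -0.33, -0.27, -0.32 and -0.32, while 1 fell without 4:30 and 9 without 7:30. Without 22:30 or 4:30, mt-Co2 was not called either (-0.31 and -0.30).

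Fuel use was examined in further lists. Of 21 genes of glycolysis, 6 rose, a share near the 30.0% of all genes, and 1 fell. Their median of 0.11 was 0.07 without the lung marker libraries. Pfkfb3, which makes the activator of phosphofructokinase, rose by 0.56 (SE 0.17) and the cardiac form Pfkfb2 fell by 0.44. Aldoa, the most abundant, had 0.19 and was not called. Of 11 genes of glucose and lactate transport and glycogen, 6 rose and 1 fell (median 0.24, and 0.15 without those libraries). Slc2a4, the insulin-sensitive glucose transporter, was at 31.3, 73.9 and 96.4 in normoxia and 63.4, 99.4 and 154 after IH, a change of 0.50 (SE 0.09). Slc16a1, a carrier of lactate, rose by 0.38.

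Of 26 genes of fatty acid uptake and oxidation, 10 rose and 1 fell (median 0.13), and the count of rises was 6 without 22:30 or without the lung marker libraries, where the median was 0.07. Acsl1, which activates long-chain fatty acids, went from 53.8, 95.9 and 139 to 91.8, 138 and 191, with 21 of 23 IH libraries above the normoxia median (0.52, SE 0.09). Cd36, a fatty acid transporter, rose by 0.43 and Hadha, of the trifunctional protein, by 0.37. Of 20 PPAR targets and regulators, genes of the nuclear receptors that govern fat burning, 9 rose and 0 fell (median 0.21), among them Ppara itself (0.54), Pnpla2 (0.41), the lipase that opens triglyceride stores, and the receptor partner Rxra (0.37). Lpl, the lipoprotein lipase and the most abundant, rose by 0.29. Of 13 creatine kinases and carriers of adenylates and phosphate, 1 rose and 0 fell, namely the mitochondrial creatine kinase Ckmt2 (0.42). Their median of 0.04 was -0.01 without the thymocyte and lung marker libraries, and myoglobin (Mb), the most abundant, had 0.03.

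Of 33 tested genes of the sarcomere, the contractile machinery, 3 rose and 3 fell (median 0.06). The balance depends on the libraries: 2 rose and 8 fell without 7:30 (median -0.04), 2 and 13 without the lung marker libraries (-0.07), 4 and 9 without the thymocyte marker libraries (-0.07) and 3 and 8 without both kinds (-0.04). Without 19:30, 1 rose. Besides Myh7b, Myh7, the slow myosin of the fetal ventricle, fell by 0.47 (SE 0.13), and Mybpc3, the cardiac myosin binding protein, rose by 0.34. In replicate 3 alone Myh7 had 0.02. Myh6, the fast myosin of the adult mouse ventricle, had -0.05. Since Myh6 and Myh7 are alike over long stretches, reads may pass between them and the Myh7 value is uncertain. Myl2 (-0.20) and Tnnt2 (-0.17), the cardiac troponin T, were not called.

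Of 23 genes of calcium cycling, 12 rose, 0 fell and 11 were not called (median 0.14). Without the lung marker libraries, 10 rose and 2 fell. Slc8a1, the sodium-calcium exchanger, was at 3.51, 10.6 and 21.4 in normoxia and at 9.43, 17.3 and 33.0 after IH. The groups overlap, with 22 of 23 IH libraries above the normoxia median, and the log2 change was 0.71 (SE 0.15). Atp2a2, the calcium pump of the sarcoplasmic reticulum, went from 433, 1221 and 1821 to 1082, 1668 and 2594, a change of 0.49 (SE 0.12). Casq2 (0.46) and Hrc (0.45) bind calcium inside that store. Pln, the brake on the pump and the most abundant of the list, had 0.04 and was not called, but it was called lower with limma array weights (-0.16).

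Of 19 ion channels and pumps, 10 rose and 0 fell (median 0.27, and 0.17 without the lung marker libraries). Abcc9, a regulator of ATP-sensitive potassium channels, rose by 0.51 and Kcnk3, a background potassium channel, by 0.45. Fxyd1, the phosphorylated regulator of the sodium pump and the most abundant, had -0.11. Of 24 genes of the intercalated disc and costamere, which join cells and anchor the sarcomere, 17 rose and 0 fell (median 0.29), and 10 rose and 1 fell without the lung marker libraries (median 0.18). Dag1, dystroglycan, was at 13.52, 32.1 and 52.5 in normoxia and at 29.3, 50.5 and 75.4 after IH (0.68, SE 0.11). Xirp1 (0.55) is an actin-binding repeat protein of the disc, Sgcd (0.52) a sarcoglycan and Gja5 (0.49) a connexin of fast conduction. Jup, plakoglobin, was the most abundant of the list at 0.18, a call that was lost on leaving out any of 7 time points (0.15 to 0.19 without them), and without the lung marker libraries (0.09).

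Among 17 genes of the fetal and stretch programme, 8 rose and 1 fell, with a median of 0.28, and 5 rose without 19:30 or without the lung marker libraries, where the median was 0.17. Nppb, which encodes B-type natriuretic peptide, was at 34.6, 173 and 355 in normoxia and at 60.0, 282 and 925 after IH. The groups overlap and the log2 change was 0.64 (SE 0.23, adjusted p = 0.0183 by limma), which was not called without 1:30 (0.53) or without the lung marker libraries (0.49). Ccn1 (0.51) and Ccn2 (0.50) are matricellular proteins that respond to stretch. Nppa, the atrial natriuretic peptide and the most abundant, had 0.29 and was not called. In adrenergic and cAMP signalling 9 of 18 rose and 0 fell (median 0.20, and 0.12 without those libraries), among them Adcy5, an adenylyl cyclase of the heart (0.53), Akap6, an anchor of protein kinase A (0.49), and Chrm2, the muscarinic receptor that slows the heart (0.42). The beta receptor Adrb1 had 0.16 and the most abundant member, Gnas, -0.04, and neither was called.

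Many matrix genes rose, and so did many markers of fibroblasts (10 of 16, median 0.29) and of the epicardium and mesothelium (7 of 9, median 0.48), read below, so that more such cells and more matrix RNA per cell cannot be told apart. The fibroblast list shares Col1a1, Col1a2, Col3a1, Dcn, Lum, Mfap5, Postn, Fbln1 and Mmp2 with the matrix lists, so the counts are not separate observations. Of 14 collagens, 8 rose and 0 fell (median 0.36). Col18a1, the basement membrane collagen that carries endostatin, was at 3.66, 5.36 and 9.75 in normoxia and at 6.00, 8.33 and 12.7 after IH, with all 23 IH libraries above the normoxia median (0.61, SE 0.09). The fibrillar collagens Col1a1 and Col1a2 each rose by 0.46, while Col3a1, the most abundant, had 0.17 and was not called. Of 29 matrix and matricellular proteins, 16 rose and 1 fell (median 0.26), while 2 fell without the lung marker libraries (median 0.16). Fmod, fibromodulin, went from 5.03, 11.8 and 24.9 to 13.6, 17.99 and 24.6 (0.66, SE 0.10), Prelp, a leucine-rich proteoglycan, rose by 0.63, and Fbln5 (0.58) and Fbln1 (0.57) are fibulins of elastic fibres. Decorin (Dcn), the most abundant, rose by 0.38.

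Of 18 enzymes and inhibitors of the matrix, 14 rose and 0 fell (median 0.32), with medians of 0.36, 0.22 and 0.43 in the 3 replicates. Timp3, an inhibitor of metalloproteinases, rose by 0.50, P4ha1, a collagen prolyl hydroxylase, by 0.48, and Loxl1, which crosslinks elastin, by 0.45. Serpinh1, the collagen chaperone and the most abundant, rose by 0.36. In TGF-beta and BMP signalling 15 of 21 rose and 0 fell (median 0.25). Tgfbr2, the type 2 receptor for TGF-beta, was at 5.67, 14.1 and 19.0 in normoxia and at 12.2, 20.2 and 25.5 after IH, and 22 of 23 IH libraries were above the normoxia median (0.60, SE 0.09). Bmp6 (0.59), Bmpr1a (0.48) and the inhibitory Smad6 (0.45) rose as well, and Tgfb1, the ligand, had 0.02. Ltbp4, which binds latent TGF-beta, was the most abundant and rose by 0.39.

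Of 8 tested oxygen sensors and HIF subunits, 2 rose and 0 fell, with a median of 0.15: Epas1, the HIF alpha subunit of endothelium, by 0.38 (SE 0.09) and Hif1an, which blocks the activity of HIFs when oxygen is present, by 0.35. Hif1a had 0.06 and was not called. Without the thymocyte marker libraries, or without both kinds of marker library, 5 rose. Of 28 HIF target genes, 9 rose and 1 fell (median 0.14), and 2 fell without the lung marker libraries (median 0.07). In both lists the share of rises was near the 30.0% of all genes. The HIF targets that rose include Pfkfb3 and P4ha1, given above, and Ndrg1 (0.41). The member that fell was Vegfa, the main growth factor of blood vessels, at 29.5, 108 and 162 in normoxia and at 42.8, 61.8 and 90.7 after IH. All 23 IH libraries were below the normoxia median, with a log2 change of -0.71 (SE 0.13, adjusted p = 1.52e-05 by limma, replicates -0.88, -0.88 and -0.37). Epo was at 0 in the median library.

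Vegfa is also a member of a list that holds angiogenic ligands and receptors together. Of 23 angiogenic ligands and receptors, 16 rose and 2 fell (median 0.30), the other fall being Vegfb (-0.30), the most abundant, which was not called without 10:30 (-0.27), 13:30 (-0.24), 16:30 (-0.25) or 1:30 (-0.28). Nrp1, a co-receptor, was at 12.2, 25.9 and 39.5 in normoxia and at 23.3, 40.1 and 49.7 after IH (0.57, SE 0.11). Flt1 (0.50) and Kdr (0.48) are the VEGF receptors and Pdgfra (0.46) the platelet-derived growth factor receptor of fibroblasts. Of 20 genes of vasoactive peptides, nitric oxide and the renin-angiotensin system, 11 rose and 0 fell (median 0.25), while 1 fell without the lung marker libraries (median 0.15). Ece1, which cuts endothelin to its active form, went from 18.5, 42.6 and 52.4 to 45.9, 63.6 and 85.6 (0.69, SE 0.10), with all 23 IH libraries above the normoxia median. Npr3, the clearance receptor for natriuretic peptides, rose by 0.62, Ace, the angiotensin-converting enzyme, by 0.52 and Ednra, an endothelin receptor, by 0.50. Ramp2, the most abundant, had 0.16 and was not called.

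Among stress responses, most genes of the chaperones of the endoplasmic reticulum rose. Of 24 genes of this list, 20 rose and 0 fell (median 0.29), with medians of 0.23, 0.26 and 0.34 in replicates 1, 2 and 3, and 18 rose without the thymocyte and lung marker libraries. Hspa5, the Hsp70 of the endoplasmic reticulum, was at 76.6, 120 and 200 in normoxia and at 108, 184 and 298 after IH. The groups overlap, with 22 of 23 IH libraries above the normoxia median (0.59, SE 0.11). Hyou1 (0.52) and Pdia4 (0.49) fold and oxidise proteins there, and Atf6 (0.48) is a sensor of unfolded proteins. The list's median transcript length was 2179.5 bases, with 1 of the 24 members in the shortest of the 5 length groups and 6 in the longest, and the part of length was not tested.

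Promoters of this list were searched for the endoplasmic reticulum stress element, spelled CCAAT-N9-CCACG (N is any base), on both strands. It was in 9 of 23 promoters of the list (39.1%), in 8 of the 17 of them whose genes rose (47.1%) and in 35 of all 27025 promoters (0.13%). Shown are Hspa5 (chr2:34771840-34772139, plus strand) and 3 others chosen after their values were seen, Canx (0.32, chr11:50325624-50325923, minus strand), Dnajc3 (0.32, chr14:118937682-118937981, plus strand) and Hsp90b1 (0.30, chr10:86705395-86705694, minus strand). Canx and Hsp90b1 are chaperones and Dnajc3 a partner of Hspa5. Sequences are from RefSeq, build GRCm38.p6, 5' to 3' on the strand of the gene, and capitals mark the motif, which is a description of letters and not a measured site.
Hspa5: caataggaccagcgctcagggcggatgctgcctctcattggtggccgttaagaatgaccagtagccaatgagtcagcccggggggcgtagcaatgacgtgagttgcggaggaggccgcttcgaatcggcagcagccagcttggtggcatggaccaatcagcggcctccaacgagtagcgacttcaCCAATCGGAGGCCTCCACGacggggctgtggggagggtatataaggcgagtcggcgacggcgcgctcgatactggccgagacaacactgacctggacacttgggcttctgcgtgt
Canx: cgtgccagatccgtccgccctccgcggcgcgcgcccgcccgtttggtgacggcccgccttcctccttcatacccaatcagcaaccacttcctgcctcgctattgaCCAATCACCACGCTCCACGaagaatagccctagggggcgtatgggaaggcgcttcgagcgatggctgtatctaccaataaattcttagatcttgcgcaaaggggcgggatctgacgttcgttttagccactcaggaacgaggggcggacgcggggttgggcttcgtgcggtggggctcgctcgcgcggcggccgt
Dnajc3: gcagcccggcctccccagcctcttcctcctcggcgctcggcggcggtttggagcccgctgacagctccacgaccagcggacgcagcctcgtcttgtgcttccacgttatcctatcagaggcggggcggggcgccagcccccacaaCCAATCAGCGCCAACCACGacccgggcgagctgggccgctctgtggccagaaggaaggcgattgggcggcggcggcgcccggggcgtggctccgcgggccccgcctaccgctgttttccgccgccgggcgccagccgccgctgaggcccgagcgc
Hsp90b1: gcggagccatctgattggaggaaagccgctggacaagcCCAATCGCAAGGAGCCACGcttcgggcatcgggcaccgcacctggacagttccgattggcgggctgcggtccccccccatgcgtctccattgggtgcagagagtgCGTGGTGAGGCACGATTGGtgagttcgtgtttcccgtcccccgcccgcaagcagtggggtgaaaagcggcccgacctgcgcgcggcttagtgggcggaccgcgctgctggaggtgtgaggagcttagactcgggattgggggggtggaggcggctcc

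Chaperones of the cytosol and mitochondria formed another list. Of 27 heat shock chaperones, 11 rose and 1 fell (median 0.14), with 7 rises without 13:30, 7 without 1:30 and 6 without 22:30, and 3 fell without the lung marker libraries. Hspa4l (0.49) is a partner of Hsp70, and Hspa9 (0.38) is the Hsp70 of mitochondria. The inducible Hspa1b had 0.70 and was called, but it was not called without 10:30 (0.70), without 1:30 (0.64) or without the thymocyte marker libraries (0.69), and it has a near-identical copy, so its value is uncertain. Cryab, the most abundant, had 0.06. In the integrated stress response around ATF4, 7 of 17 rose and 2 fell (median 0.12). The rises include Aars (0.34), a tRNA synthetase, and Slc3a2 (0.32), a chain of amino acid transporters, while Cars (-0.30), another synthetase, fell. Atf4 itself had 0.02 and Eif4ebp1, the most abundant, 0.10.

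Of 31 NRF2 targets and antioxidant enzymes, 10 rose and 3 fell (median 0.11, and 0.05 without the lung marker libraries), and the falls numbered 1 without 10:30, 13:30 or 16:30 and 6 without 7:30 or without the thymocyte marker libraries. Sod3, the extracellular superoxide dismutase, was at 7.70, 11.8 and 19.7 in normoxia and at 13.6, 17.2 and 23.1 after IH (0.50, SE 0.08). Gpx3, a secreted glutathione peroxidase, rose by 0.32, and Cat and Prdx1, which remove peroxide, each by 0.29. Fth1, the ferritin heavy chain and the most abundant, had -0.24 and was not called. Of 24 glucocorticoid targets, 9 rose and 0 fell (median 0.22, and 0.12 without the thymocyte marker libraries), among them Hsd11b1 (0.37), which makes active corticosterone, and Foxo3 (0.34). The receptor target Fkbp5 had 0.46 and was not called, nor was Mt1 (-0.05), the most abundant. Of 16 immediate early genes, 4 rose and 1 fell (median 0.15), with 2 rises without 16:30 or without 19:30. Jun rose by 0.31 and Klf10 fell by 0.35, while Jund, the most abundant, had 0.10.

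Degradation and growth were read next. The 31 proteasome genes gave 3 rises and 6 falls, and a median of -0.02 that is 0.10 in TPM as deposited. Psma3 (-0.29) and Psma5 (-0.18), of the core, fell and Psmd1 (0.17), of the cap, rose. Of the falls, 2 were called without 10:30, 13:30 or 4:30, 3 without 16:30 or 1:30, and 2 without the thymocyte and lung marker libraries. Psmb6, the most abundant, was called at -0.15 but not without 10:30 (-0.12), 13:30 (-0.14), 16:30 (-0.15), 1:30 (-0.14) or 4:30 (-0.14), nor without the lung (-0.15), the thymocyte (-0.14) or both kinds of marker library (-0.14). Of 28 genes of autophagy and mitophagy, 14 rose and 0 fell (median 0.11). The rises were led by lysosomal proteases: Ctsb was at 66.5, 111 and 147 in normoxia and at 130, 173 and 198 after IH, with all 23 IH libraries above the normoxia median (0.64, SE 0.07), and Ctsd rose by 0.47. Atg9a (0.41) brings membrane to the growing autophagosome. Map1lc3a, the most abundant, had -0.10 and was not called.

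Of 16 muscle ubiquitin ligases and growth regulators, 9 rose and 1 fell (median 0.20), and 0 fell without 10:30, 13:30, 16:30, 19:30, 22:30 or 4:30. Igfbp7, the most abundant, rose by 0.25, a call lost without 13:30 (0.25), 16:30 (0.25), 1:30 (0.23), 4:30 (0.25) or 7:30 (0.21). Binding proteins of insulin-like growth factors led the list, with Igfbp5 at 18.6, 39.7 and 72.5 in normoxia and at 39.2, 56.8 and 83.9 after IH (0.59, SE 0.12), Igfbp3 rising by 0.49 and Igfbp4 by 0.38. The atrophy ligases Trim63 (0.19) and Fbxo32 (0.18) were not called. Of 17 genes of apoptosis and p53, 2 rose and 3 fell, with a median of 0.02 that is -0.01 with upper quartile scaling. Bax, which opens the outer mitochondrial membrane, fell by 0.27. Without 10:30 or 16:30 0 rose and without 13:30, 19:30 or 1:30 1 rose, and the median was -0.00 without 4:30. Ccng1, the most abundant, had 0.01, but it was called lower with limma array weights (-0.18). Of 15 cell cycle genes none was called in either direction (0 and 0). Their median of -0.08 was 0.02 in TPM as deposited. It was 0.04 without 19:30, where 13 genes were tested, and 0.03 without the thymocyte and lung marker libraries, where 8 were tested. Without the lung marker libraries alone it was 0.15 over 9 tested genes, so these medians do not cover the same genes. Leaving out 4:30, 7:30 or the lung marker libraries gave 1 rise. Ccnd3, the most abundant, had -0.10.

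Of 20 genes of lipogenesis and triglyceride storage, 12 rose and 1 fell (median 0.38), with 8 rises without 10:30 or 13:30 and 0 falls without 13:30, 16:30, 22:30 or 4:30. Besides Scd1 and Acaca, Lpin1, a phosphatidate phosphatase, was at 10.1, 17.3 and 24.6 in normoxia and at 14.3, 26.2 and 33.6 after IH (0.50, SE 0.09), and Acly, which makes cytosolic acetyl-CoA, also had 0.50 but was not called without 10:30 (0.36), 13:30 (0.44) or 16:30 (0.48). Fasn, the fatty acid synthase, had 0.76 and was not called, with levels from 5.48 to 197 in normoxia and from 7.03 to 397 after IH. White adipocyte markers, read below, had a median of 0.89, with 1.58, 0.99 and 0.03 in replicates 1, 2 and 3 against 0.56, 0.25 and 0.21 for this list, so that fat around the heart and synthesis in its own cells cannot be told apart. Dgat2, the most abundant, had 0.31, a call lost without 22:30 (0.30) or without 7:30 (0.26). Of 8 genes of cholesterol synthesis and uptake, 3 rose and 0 fell (median 0.18), among them Insig1 (0.39), which holds the sterol sensor in place, and Sc5d (0.37). Without the thymocyte and lung marker libraries 5 rose. Fdft1, the most abundant, had 0.21 and was not called.

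Of 20 genes of iron handling, 10 rose and 2 fell (median 0.09), with 4 falls without 7:30 and 1 without 22:30. Alas1, the entry enzyme of haem synthesis, was at 45.6, 74.0 and 111 in normoxia and at 65.2, 111 and 131 after IH (0.51, SE 0.09). Cp, ceruloplasmin, rose by 0.41 and Aco1, the cytosolic aconitase that doubles as an iron regulatory protein, by 0.40. In the list of the actin cytoskeleton and targets of YAP or SRF, 14 of 24 rose and 0 fell (median 0.27). There, 1 fell without 7:30 and without the lung, the thymocyte or both kinds of marker library. Acta2, the smooth muscle actin, was at 38.2, 70.3 and 151 in normoxia and at 75.8, 122 and 170 after IH, with all 23 IH libraries above the normoxia median (0.76, SE 0.12). Cnn1, calponin, rose by 0.51. Actb, the most abundant, had -0.02.

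Immune genes were read in several lists. Of 20 chemokines, cytokines and complement genes, 13 rose and 0 fell (median 0.27). C3 is given above. C7, of the membrane attack complex, rose by 0.65, and Il6st, the shared receptor chain for the interleukin 6 family, by 0.65 as well, from 15.3, 28.2 and 41.5 to 29.0, 42.8 and 58.4. Of 19 interferon-stimulated genes, 1 rose and 3 fell, with a median of -0.02 that is 0.10 in TPM as deposited and 0.03 without 10:30 or without the thymocyte and lung marker libraries, where 1 fell in the latter. Without the lung marker libraries alone, 3 rose and 1 fell (median 0.00). Gbp2, a guanylate-binding protein, rose by 0.35 and Stat2, a mediator of interferon signals, fell by 0.40. Irf7 fell by 0.32, a call lost without the lung marker libraries (-0.24) or without both kinds (-0.25), and Ifi27l2a, the most abundant, had 0.03.

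In antigen presentation by MHC class I and II, 1 of 16 rose, the loading factor Tapbp (0.29), and 1 fell, the immunoproteasome subunit Psmb10 (-0.27). Psmb10 was not called without 10:30 (-0.22) or without the lung marker libraries (-0.22) or both kinds (-0.22), and 4 fell without 16:30. The median was -0.13, and 0.03 without the lung marker libraries. B2m, the most abundant, had 0.03. Of 11 genes of adhesion and leukocyte recruitment, 5 rose and 0 fell (median 0.25). Pecam1, an adhesion molecule of endothelium and the most abundant, was at 33.0, 64.0 and 85.5 in normoxia and at 76.5, 89.0 and 113 after IH (0.49, SE 0.07). Vcam1, a ligand for leukocyte integrins, rose by 0.40, while the leukocyte integrin chain Itgb2 had 0.28 and was not called.

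Markers of the cell types of the heart wall were read in the same way. Of 16 tested ventricular cardiomyocyte markers, 7 rose and 1 fell, with a median of 0.04, as over all genes, and -0.06 without 7:30. The rises include Ckmt2 (0.42), the mitochondrial creatine kinase, and Mybpc3 (0.34), a thick filament protein. Without 7:30 4 fell, and 3 rose and 5 fell without the lung marker libraries. Ryr2, the calcium release channel, rose by 0.40, a call lost without the lung marker libraries (0.25) or without both kinds of marker library (0.29). Of 8 atrial markers, 1 rose, the secreted Dkk3 (0.46), which was not called without the lung marker libraries (0.35) or without both kinds (0.39), and 0 fell (median 0.11), while 2 rose without 7:30. Of 10 conduction system genes, 1 was tested, Gja5, given above. Their summed level was 13.3 scaled TPM at the median in normoxia and 16.2 after IH.

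Of 16 tested fibroblast markers, 10 rose and 0 fell (median 0.29). Their summed scaled TPM was 644, 1521 and 2213 in normoxia and 1562, 2033 and 2411 after IH. Gsn, gelsolin, which cuts actin filaments and made up 43.8% of their TPM as deposited, was at 273, 606 and 922 in normoxia and at 675, 912 and 1197 after IH, with all 23 IH libraries above the normoxia median (0.63, SE 0.09). Scara5 (0.48), a ferritin receptor, marks the same cells as Pdgfra, while Tcf21 (0.15), a transcription factor of cardiac fibroblasts, Postn (0.16), a marker of activated fibroblasts, and Dpt (0.12) were not called. Of 9 epicardial and mesothelial markers, 7 rose and 0 fell (median 0.48). Lrrn4, a surface protein of mesothelium, was at 1.74, 3.53 and 7.65 in normoxia and at 4.43, 6.77 and 9.22 after IH (0.73, SE 0.12), and Upk3b, an uroplakin of the same cells, rose by 0.70. Clu, clusterin, the most abundant, rose by 0.55, and the sums had medians of 271 in normoxia and 369 scaled TPM after IH.

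Among vessel markers, 9 of 21 endothelial genes rose and 1 fell (median 0.20, and 0.10 without the lung marker libraries). Besides Pecam1, Flt1 and Kdr, the cadherin Cdh5 and the water channel Aqp1 each rose by 0.47, while Fabp4, which made up 51.2% of the list's TPM as deposited, had -0.01 and Cldn5, a tight junction protein, 0.14. Without 10:30 or 22:30 0 fell. Summed levels had medians of 2789 scaled TPM in normoxia and 2929 after IH. Of 8 endocardial and venous markers, 6 rose and 0 fell (median 0.40), among them Npr3, given above, and Plvap (0.46), a protein of fenestrae, with Bgn, the most abundant, at 0.44. Of 4 lymphatic markers, 2 rose, Lyve1 (0.53) and Pdpn (0.41), and 0 fell (median 0.34), with Ccl21a, the most abundant, at 0.12.

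Mural cells surround these vessels. Of 9 smooth muscle markers, 6 rose and 1 fell (median 0.41): next to Acta2, the smooth muscle myosin Myh11 went from 4.12, 10.1 and 16.7 to 11.2, 16.4 and 21.0 (0.74, SE 0.11), and the actin-binding Tagln rose by 0.46. Pln made up 73.2% of the list's TPM as deposited and is shared with cardiomyocytes. Without 10:30, 16:30, 22:30 or 4:30 0 fell. Of 10 pericyte markers, 4 rose and 1 fell (median 0.23, and 0.12 without the lung marker libraries), with 7 rises without 10:30 and 0 falls without 10:30, 13:30, 16:30 or 22:30. Steap4, a metalloreductase, rose by 0.40 and Rgs5, the most abundant, by 0.38, while Cspg4, which encodes NG2, had 0.02.

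Of 12 macrophage markers, 5 rose and 0 fell (median 0.16). Cd163, the haemoglobin scavenger receptor of resident macrophages, was at 3.28, 6.93 and 10.1 in normoxia and at 6.98, 9.28 and 15.2 after IH (0.49, SE 0.09), and Csf1r, the receptor they need to survive, rose by 0.44. Lyz2, the most abundant, had 0.16 and C1qa, of complement, 0.09, and neither was called. Of the other blood cells, 0 of 2 neutrophil markers (median -0.20), 0 of 8 T and NK cell markers (-0.05), 0 of 3 B cell markers (1.03), 0 of 5 erythroid markers (-0.06, and 0.06 in TPM as deposited) and 0 of 2 platelet markers (-0.15) were called in either direction. The B cell value rests on Igkc, the kappa chain, at 3.31, 14.98 and 246 in normoxia and 2.97, 40.9 and 213 after IH, which overlap over nearly their whole range. Of the B cell markers 1 rose without 7:30 and 2 without the lung marker libraries, and the T and NK cell median was 0.31 without 19:30 or 7:30 and the erythroid one 0.08 without 10:30. Of the thymocyte markers 0 of 4 were called (median 0.10), and the median was -0.42 without 10:30 and -0.26 without 16:30.

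Fat surrounds the heart in varying amounts. White adipocyte markers summed to 53.5, 343 and 1825 scaled TPM in normoxia and to 65.7, 676.5 and 2037 after IH, with Cfd, adipsin, the most abundant (41.4% of TPM as deposited). Of 8 tested, 1 rose, Lipe (0.43), and 0 fell (median 0.89). Lipe, the hormone-sensitive lipase, was not called without 10:30 (0.36), 13:30 (0.40) or 22:30 (0.40), while 3 markers rose without 7:30 and 6 without the lung marker libraries. Adiponectin (Adipoq) had 0.97 and was not called. Of 3 brown adipocyte markers, Cox8b, which the heart also makes and which was 97.7% of their TPM as deposited, fell (1 of 3, 0 rose, median 0.45), and the fall was lost without 10:30 (-0.24), 13:30 (-0.25), 16:30 (-0.27) or 4:30 (-0.27). Ucp1, which defines brown fat, had 0.75 and was not called.

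Markers of other organs were called in few cases. For hepatocytes 2 of 6 rose, Cyp2e1, given above, and Ahsg (0.40), and 0 fell (median -0.14), while 1 fell without 16:30 or 19:30 and Alb had -0.13. For lung epithelium 0 of 3 (median -0.72), for skeletal muscle fibres 0 of 2 (-0.10, and 0.01 in TPM as deposited), for Schwann cells and autonomic neurons 0 of 1 (0.16), for kidney tubule 0 of 1 (-0.25, and 0.01 without the lung marker libraries) and for cerebellum 0 of 1 (0.02, and -0.01 with upper quartile scaling) were called.

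The next question was whether the difference depends on the time of day. It was detected for 1 gene of 8127 (0.0123%) in the limma F-test over the 7 interaction terms, the predicted gene Gm12338 (adjusted p = 0.0107). Before adjustment 123 genes were at p of 0.05 or less, fewer than that threshold gives on average when no gene changes. With at most 3 libraries per treatment at each time point, the test can miss dependence on time, so it does not show equal changes at all times. Gm12338 ranged from 0 to 1966 scaled TPM in normoxia and from 569 to 2536 after IH, and its overall rise of 2.15 was not called without 13:30 (1.85) or 1:30 (0.92). Without replicate 1 the test called 2 genes, without replicate 2 it called 0, and without the thymocyte and lung marker libraries 0. Of 14 clock genes, 1 rose over all time points, Bhlhe40 (0.32), a repressor that feeds back on the clock, and 0 fell. The list's median of 0.03 is -0.00 with upper quartile scaling and -0.01 without 7:30. The Bhlhe40 call was lost without 4:30 (0.26), 7:30 (0.26), the thymocyte marker libraries (0.29) or both kinds of marker library (0.33). Dbp, a clock output gene with a wide daily swing, ranged from 8.43 to 158 in normoxia and from 6.55 to 135 after IH, with an interaction p of 0.000507 before and 1.0 after Benjamini-Hochberg adjustment over all genes (limma). Tef, the most abundant clock gene, had -0.14 and was not called.

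The shift of some gene groups was then read library by library. By the median of their members in each library, relative to the normoxia mean, 19 of 23 IH libraries lay below the normoxia median for ribosomal proteins, 4 of them below every normoxia library. For complexes III and IV and ATP synthase 20 of 23 lay below that median, 0 of them below every normoxia library. For the endoplasmic reticulum chaperones 21 of 23 lay above the normoxia median, 11 of them above every normoxia library, and for matrix enzymes 21 of 23, 12 of them above every normoxia library.

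**Figure D5:**
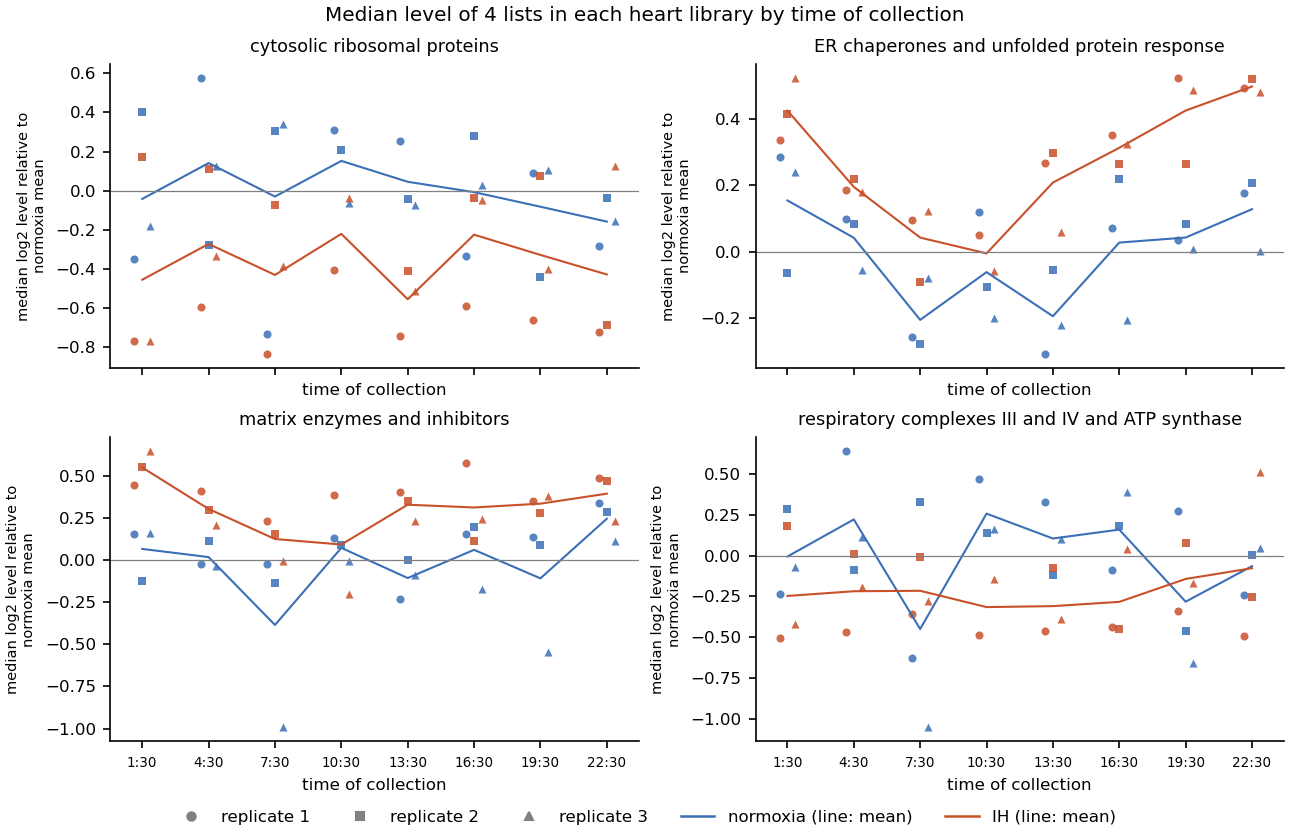
Median log2 level of 4 lists relative to their normoxia mean (y axis) in each library by time of collection (x axis), with symbols for the replicate, colours for the treatment and lines through the means. Chaperones of the endoplasmic reticulum and matrix enzymes lie higher after IH at most times, while ribosomal proteins lie lower, and complexes III and IV and ATP synthase lie lower except at 7:30 and 19:30.

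Skeletal muscle, the tissue of the series most like the heart, was taken as a comparison, with 24 libraries per treatment, to ask which changes differ between the tissues. Among 7618 genes that average 5 TPM or more in both, the change after IH differed in 2981 (39.1%, limma interaction, adjusted p of 0.05 or less): it was higher in the heart for 2233 and lower for 748, with a median difference of 0.09. In TPM as deposited it differed in 1670 genes, and without replicate 1 in 1693. The paper took several organs from 3 mice per time point and condition, so heart and muscle libraries share animals. The labels do not say which libraries share a mouse, so they were taken as independent. Ribosomal proteins had a median of -0.03 in skeletal muscle, and 43 of 77 differed, all 43 lower in the heart. For RNA-binding proteins 14 of 29 differed, all lower in the heart, and the muscle median was 0.05. For Clk1 and Pnisr, which fell in the heart, the muscle changes were 0.14 and 0.25, and the differences -0.94 and -1.14.

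Matrix and chaperone genes separated the tissues in the opposite direction. Over all 7618 genes the change was higher in the heart for 2233 and lower for 748. From the shortest to the longest length group, median changes went from -0.08 to 0.16 in the heart and from -0.03 to -0.01 in muscle. The part of length in the differences between tissues was not tested, and genes detected were counted in the heart alone. Of 29 matrix proteins 23 were higher in the heart by the interaction test and 0 lower, of 17 matrix enzymes 14 and 0. Of 13 collagens it was 9 and 0, and of 19 TGF-beta and BMP genes 15 and 0. Collagens had a median of -0.29 in muscle, and Col1a1 went by -0.32 there, a difference of 0.80. Endoplasmic reticulum chaperones differed in 17 of 24 genes, all higher in the heart, with a muscle median of 0.01. Of 15 fibroblast markers 12 differed, and of 21 endothelial markers 14 were higher and 1 lower in the heart. Vegfa changed by 0.23 in muscle and its difference was -0.91. In muscle Lars2 changed by 1.49, Ccnb1ip1 by 1.42, Creb5 by 0.99, Tmem38b by 0.45, Ccdc107 by 0.15 and C3 by 0.03, with differences of 2.23, 2.39, 2.05, 2.13, 0.84 and 0.89. For complex I 3 of 37 subunits differed, all higher in the heart, mt-Co2, whose call in the heart was lost without single time points as given above, changed by -0.31 in the heart and -0.75 in muscle (difference 0.46), and for Zrsr1 (-1.01 in muscle) and Gm19220 (-1.07 in muscle) no difference was detected (adjusted p = 0.678 and 0.764, limma).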

How the data were processed

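RNA was measured in mouse hearts after intermittent hypoxia (IH) or normoxia. The authors made reads with bcl2fastq, checked them with FastQC 0.11.3, quantified them with kallisto on the mouse genome mm10, and deposited TPM per gene. For their own tests the authors used DESeq2. The paper gives the depth only over all samples of the series, as a minimum and a median, and TPM keeps no read depth, so the depth of each sample and its precision are not known.

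Genes that average 5 TPM or more were kept. The deposited TPM were scaled by the median of ratios, 0.5 was added as pseudocount, and log2 was taken. The 24 normoxia and 23 IH libraries were compared with limma 3.58.1 (trend) in R 4.3.3, with a threshold of 0.05 after Benjamini-Hochberg adjustment, alone and together with 1.5-fold. IH replicate 2 at 10:30 was left out because it holds cerebellum transcripts. Interactions with time point and with skeletal muscle were tested in limma, and genes detected by 100000 permutations. Python 3.11.15, numpy 2.4.6, scipy 1.17.1, pandas 2.3.3 and matplotlib 3.10.9 were used, and the fits were tested on simulated data.

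Named genes are the 12 of largest change per direction among genes at 1.5-fold with the same direction at 7 or more time points, predicted genes and pseudogenes left out, the 3 called genes of largest TPM, and for each list up to 4 called members, the most abundant member, markers that define a cell type, and uncalled members needed to show the list. Lists and their members were chosen with earlier results of these data known. Alternatives varied the pseudocount, filter, scaling, model terms, weights, replicates, time points and libraries.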

Additional observations from a re-analysis of the deposited data

Results flagged for a closer look

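The change after IH was not the same in the heart and in skeletal muscle for 2981 of 7618 genes, by the limma interaction of treatment and tissue, and for 1670 genes in TPM as deposited and 1693 without replicate 1. Among the genes named first in the report, this test called the following, given as the log2 change in the heart minus that in skeletal muscle. The difference was positive for Ccnb1ip1 2.39, Lars2 2.23, Creb5 2.05, Tmem38b 2.13, Ccdc107 0.84, C3 0.89, Acaca 0.93 and mt-Co2 0.46. It was negative for Ccl21d -1.48, Focad -1.27, H2ac18 -1.14, Pnisr -1.14, Rpl5 -0.61 and Clk1 -0.94. For mt-Co2 the change was -0.75 in skeletal muscle and -0.31 in the heart.

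Dependence of the change on the time of day was detected for 1 gene, Gm12338, by the limma F-test of treatment and time point.

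A signal appeared in a library that the comparison leaves out and that was put back only as an alternative: in IH replicate 2 at 10:30, markers of the cerebellum summed to 210 TPM, against at most 26.3 in the heart libraries compared.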

How the results depend on the processing

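In all, 31 alternatives were tried on 239 genes named in the text and 64 lists, 4 of them chosen after seeing the data: without the libraries with thymocyte markers, with lung markers or with both, and treatment alone over 46 libraries. Of the gene values, 6554 kept their side of the threshold, 600 fell below it, 84 passed it and 57 changed direction with a call in either fit. Genes called in neither fit are counted by their side of the threshold alone, so some of the 6554 may have changed direction. Of the list medians, 1768 stayed within the spread of the replicates and 170 moved beyond it. The other 24 changed sign from a main median larger than that spread, and sign changes of smaller medians are counted with the rest.

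Adding the log2 count of detected genes to the model changed most. It left 111 genes called and 59 at 1.5-fold, with 50.5% of the called genes higher. Because this number does not overlap between the treatments, the term and treatment cannot be told apart. Sign changes are listed for medians larger than the spread of the replicates in the main fit and for genes called in either fit. Smaller medians and uncalled genes that changed sign are not listed. The medians of these lists then changed sign: glycolysis (-0.0376), glucose and lactate transport and glycogen (-0.0634), fatty acid uptake and oxidation (-0.0283), PPAR targets and regulators (-0.0419), calcium handling (-0.13), ion channels and pumps (-0.18), intercalated disc and costamere (-0.19), fetal and stretch genes (-0.17), adrenergic and cAMP signalling (-0.0741), collagens (-0.26), matrix and matricellular proteins (-0.11), matrix enzymes and inhibitors (-0.0874), oxygen sensors and HIF subunits (-0.0775), angiogenic ligands and receptors (-0.16), vasoactive peptides, nitric oxide and renin-angiotensin (-0.0411), heat shock chaperones (-0.0257), cytosolic ribosomal proteins (0.0868), muscle ubiquitin ligases and growth control (-0.0264), fibroblast (-0.0254), endothelial (-0.13), pericyte (-0.16), smooth muscle (-0.0192). So did these genes: Pcdhgc4 (0.12), Abcc9 (-0.18), Adcy5 (-0.11), Akap6 (-0.27), Atf6 (-0.12), Atp2a2 (-0.19), Bax (0.0281), Bmpr1a (-0.0612), Canx (-0.0556), Casq2 (-0.17), Cdh5 (-0.13), Chrm2 (-0.17), Col1a1 (-0.27), Col1a2 (-0.0573), Dag1 (-0.0267), Dkk3 (-0.17), Epas1 (-0.0873), Gja5 (-0.0544), Hadha (-0.0446), Hif1an (-0.0677), Hrc (-0.0327), Hspa4l (-0.0368), Igfbp5 (-0.0065), Jun (-0.0814), Jup (-0.18), Kcnk3 (-0.0327), Kdr (-0.31), Loxl1 (-0.17), Mybpc3 (-0.13), Nrp1 (-0.11), Pdgfra (-0.0495), Ppara (-0.10), Psma3 (0.12), Psma5 (0.0922), Psmb10 (0.0999), Psmb6 (0.0719), Qk (-0.16), Rbfox2 (-0.34), Rbm3 (0.16), Rgs5 (-0.0413), Rpl13a (0.0256), Rpl32 (0.0077), Rpl34 (0.0234), Rxra (-0.0531), Ryr2 (-0.45), Sdha (-0.0097), Serpinh1 (-0.11), Sgcd (-0.0243), Slc8a1 (-0.19), Smad6 (-0.037), Xirp1 (-0.27).

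The count of genes called was 1479 at a mean of at least 20 TPM, where fewer genes are tested, 12949 without a filter, 638 in replicate 2 alone and 452 in replicate 3 alone. It ranged from 1958 to 3693 when 1 replicate was left out. At 1.5-fold the count was 287 in TPM as deposited, 378 at a mean of at least 1, 56 at 20, 547 without a filter, 630 in replicate 1 alone and 105 in replicate 2 alone, and from 117 to 269 when 1 replicate was left out.

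The share of called genes that were higher was 87.4% in TPM as deposited, 53.2% with upper quartile scaling, 31.0% without a filter, 81.4% in replicate 3 alone, and 62.3% to 75.0% when 1 replicate was left out. At 1.5-fold the share was 52.4% and lies close to an even split, so that it crossed to the other side in many settings: 42.7% with limma array weights, 37.6% at a mean of at least 1, 28.9% without a filter, 47.1% with a pseudocount of 2, 20% in replicate 2 alone, 42.9% with upper quartile scaling, 46.7%, 47.5% and 48.7% without 10:30, 13:30 or 7:30, 46.2% without the thymocyte and lung marker libraries and 46.7% without the thymocyte ones. It was 81.2% in TPM as deposited, 62.5% at a mean of at least 20 and 74.8% in replicate 3 alone, and 41.0% to 61.0% when 1 replicate was left out. The cause was not tested.

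The limma F-test for time called 0 to 2 genes when 1 replicate was left out and 0 without the thymocyte and lung marker libraries. The difference from skeletal muscle was called in 1670 genes in TPM as deposited, 4524 at a mean of at least 1 and 1693 to 3285 when 1 replicate was left out. The difference in genes detected was -4327 to -3026 when 1 replicate was left out, and 72 for genes with at least 1 TPM. Other changes of sign by the same rules were Ccng1 (-0.18) and Pln (-0.16) with limma array weights and the hepatocyte median (0.0001) in replicate 1 alone. In replicate 2 alone they were Pcdhgc4 (0.14), Irf7 (0.0272) and Psmb6 (0.0361), and in replicate 3 alone the brown adipocyte median (-0.0074) and Myh7 (0.0241). The cause was not tested.

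With the replicate number as a block, 3861 genes were called, 3802 of them shared, and 169 passed 1.5-fold. With the block within time point, over 46 libraries, 3752 were called and 172 passed 1.5-fold, against 3715 and 169 for treatment alone over the same libraries. Libraries of 1 time point and number had correlations of -0.3 to 0.517 (median 0.0246), and 10 of 23 pairs were above 0.1. Other numbers at the same time point had a median of 0.0946, so the numbers do not mark pairs. TPM keeps no read depth, so the precision of low values is unknown.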
